A study of Mus musculus with 8 samples.

Results

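Open chromatin at the genes of the mouse ribosome was compared between groups of sorted bone marrow progenitor cells. The regions described here lay within 1 kb of either end of a RefSeq protein-coding gene whose symbol starts with Rpl, Rps, Mrpl or Mrps, with the Rps6k kinases left out, on the mm10 build. Of the 61196 regions in the series, 183 met this rule. They were found at 157 of 169 such genes (92.9%), whereas 13056 of 21900 protein-coding genes (59.6%) had a region at the same distance. By class, with gene copies such as Rpl31-ps12 and Rps23rg1 counted by their symbols, a region was present at 46 of 50 cytosolic large subunit genes, 30 of 32 cytosolic small subunit genes, 48 of 49 mitochondrial large subunit genes, 27 of 29 mitochondrial small subunit genes and 5 of 8 paralog genes. The last member, Rps19bp1, encodes a binding partner of a ribosomal protein and not a subunit of the ribosome. No region lay within 1 kb of either gene end at Rpl19, Rps2, Mrpl4, Mrps2, Mrps23, Rpl10l, Rpl39l, Rpl31-ps12, Rpl32l, Rpl37rt, Rps23rg1 or Rps27rt, which include several copies named as retrogenes or pseudogenes. Rpl19, Rps2, Mrps2 and Mrps23 have a start in the RefSeq promoter table that lies further inside the gene, and a region was present there, at a mean of 31.2, 36.4, 11.9 and 36.2 CPM (counts scaled as explained further on), but the rule does not take it.

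ATAC-seq reads open DNA through the places where the Tn5 transposase inserts sequencing adapters. The 8 libraries form 4 groups, labelled cMoP, GMP-MoP, proNeu1 and proNeu2 with no spelled-out names, with 2 libraries in each. All were made from 5000 progenitor cells sorted per tube from mouse bone marrow, and the labels give no genotype, strain, age, treatment or sorting gate. They call the 2 libraries of a group biological replicates without saying whether separate animals were used, so the p-values measure the spread between these libraries, which may be partly technical.

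A ribosome has a large and a small subunit, each built of ribosomal RNA and many proteins. Rpl and Rps genes encode proteins of the cytosolic ribosome, which translates nuclear messages, and Mrpl and Mrps genes encode proteins of the mitochondrial ribosome, which is assembled inside mitochondria from imported proteins and translates the few messages of the mitochondrial genome. Growing progenitor cells make ribosomes at a high rate, and ribosomal protein genes are transcribed in nearly every cell, so their promoters are often treated as a constant scale. Promoters of cytosolic ribosomal protein genes commonly start transcription at a C within a run of pyrimidines, which becomes the terminal pyrimidine tract through which growth signals control translation of these messages.

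The promoters below are shown to let the sequence be read beside the accessibility given further on. Rpl7a, Rpl26, Rpl13a, Rpsa, Mrpl10 and Mrpl48 had higher counts in the proNeu groups than in cMoP, Rps6 carries a pyrimidine run across its start, and Mrpl50 and Rpl22l1 did not share the higher counts. Each run holds 100 bases before and 20 bases from the annotated start, written 5′ to 3′ along the gene, from the RefSeq promoters of GRCm38.p6, the assembly called mm10. Capitals mark matches to the ETS motif CCGGAA, the SP1 motif GGGCGG, the NRF1 motif GCGCATG and the TATA box TATAAA on either strand, and pyrimidine runs that begin with C within 10 bases of the start.
Rpl7a (chr2:26910707-26910826, plus strand): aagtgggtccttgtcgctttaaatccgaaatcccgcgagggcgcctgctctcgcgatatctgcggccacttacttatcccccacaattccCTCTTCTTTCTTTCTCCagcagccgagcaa
Rpl26 (chr11:68901466-68901585, plus strand): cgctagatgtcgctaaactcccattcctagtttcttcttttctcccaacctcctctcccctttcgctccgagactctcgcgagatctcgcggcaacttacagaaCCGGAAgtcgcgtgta
Rpl13a (chr7:45128726-45128845, minus strand): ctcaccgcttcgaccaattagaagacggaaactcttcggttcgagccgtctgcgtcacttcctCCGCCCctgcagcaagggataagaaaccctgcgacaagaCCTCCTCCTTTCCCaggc
Rpsa (chr9:120127666-120127785, plus strand): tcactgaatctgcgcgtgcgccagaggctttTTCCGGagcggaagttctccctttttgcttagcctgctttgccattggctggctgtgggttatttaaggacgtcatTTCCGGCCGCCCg
Rps6 (chr4:86857348-86857467, minus strand): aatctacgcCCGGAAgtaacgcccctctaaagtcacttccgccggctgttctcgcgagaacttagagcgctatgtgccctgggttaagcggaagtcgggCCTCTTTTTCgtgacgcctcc
Mrpl10 (chr11:97041482-97041601, plus strand): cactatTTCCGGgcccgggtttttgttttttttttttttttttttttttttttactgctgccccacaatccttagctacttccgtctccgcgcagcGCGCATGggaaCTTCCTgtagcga
Mrpl48 (chr7:100607603-100607722, minus strand): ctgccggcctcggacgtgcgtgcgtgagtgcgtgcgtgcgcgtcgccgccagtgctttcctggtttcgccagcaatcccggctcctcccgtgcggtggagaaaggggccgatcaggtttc
Mrpl50 (chr4:49521064-49521183, minus strand): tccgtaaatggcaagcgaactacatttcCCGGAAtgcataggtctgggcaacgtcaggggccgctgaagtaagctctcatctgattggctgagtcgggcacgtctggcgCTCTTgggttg
Rpl22l1 (chr3:28805408-28805527, plus strand): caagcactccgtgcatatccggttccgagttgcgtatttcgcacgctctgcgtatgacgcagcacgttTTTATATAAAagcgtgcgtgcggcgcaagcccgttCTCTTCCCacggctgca
A pyrimidine run near the start was present in Rpl7a, Rpl13a, Rps6, Mrpl10, Mrpl50 and Rpl22l1, the TATA box in Rpl22l1 alone of those shown, and Mrpl48 held no match. A match describes letters only and is not evidence of a bound factor.

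At least 127 of the 183 regions lay at the start of a member gene, where the label of promoter holds. A further 22 lay only at the other end of the gene, and for 33 the end was not told because the gene is not in the promoter table. Where a start fell inside a region, the region centre was a median of 34.5 bases upstream of it, with quartiles from 144 bases upstream to 44.5 bases downstream. Another protein-coding gene lay within 1 kb of 67 regions, so that the region cannot be given to 1 gene. Among regions named further on, these include those of Mrpl28 (with Pgap6), Rps27a (Clhc1), Mrpl12 (Hgs) and Mrps12 (Sars2). They also include Mrpl50 (Zfp189), Rpl7 (Rdh10) and the start of Mrps18b (Ppp1r10). Members can also share a region with each other, as Mrpl46 and Mrps11 do.

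Levels were expressed as CPM, the count over a library's total in units of 1e6 counts, scaled with the trimmed mean of M values (TMM), a factor per library that assumes most regions do not differ. Per kilobase of region, the median level was 31.1 CPM for the ribosomal protein gene regions, 27.3 CPM for regions at the starts of other genes and 9.29 CPM for all regions. Mrpl17, a protein of the mitochondrial large subunit, had the highest level per kilobase at 104 CPM, followed by Mrps14 of the mitochondrial small subunit at 98.1 CPM and Rpl37 of the cytosolic large subunit at 88.4 CPM. The lowest was a region at the other end of Rps10, at 4.84 CPM per kilobase. Class medians were 37.0 CPM per kilobase for the cytosolic small subunit, 31.5 for the cytosolic large subunit, 31.4 for the mitochondrial small subunit and 25.1 for the mitochondrial large subunit. Without division by length, the regions of highest mean level were those of Rpl41, Rpl37 and Rpl7 in the cytosolic large subunit, Rps21, Rps19 and Rps23 in the cytosolic small subunit, Mrpl17, Mrpl41 and Mrpl18 in the mitochondrial large subunit and Mrps14, Mrps28 and Mrps18b in the mitochondrial small subunit.

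The depth of the libraries ran from 1388525 to 1907810 counts over all regions, with a median of 11 to 18 counts per region. The share of counts within 1 kb of a gene end differed between groups, at 46.8% and 43.9% in the cMoP libraries, 48.8% and 46.2% in GMP-MoP, 53.5% and 52.9% in proNeu1, and 54.0% and 53.7% in proNeu2. Marker genes fixed by list moved with the group names: regions at 10 neutrophil markers summed to 155 to 161 CPM in cMoP, 218 to 231 in GMP-MoP, 467 to 510 in proNeu1 and 572 to 606 in proNeu2. Regions at 6 of 8 monocyte markers summed to 186 to 210 CPM in cMoP, 142 to 177 in GMP-MoP and 110 to 121 in the proNeu groups. No region lay within 1 kb of the 4 T and NK cell markers, and regions at 3 of 4 B cell markers summed to 28 to 37.1 CPM over the 8 libraries. Regions at erythroid and megakaryocyte markers summed to 47.4 to 70.8 CPM, those at dendritic cell markers to 31.3 to 81.3 CPM with both cMoP libraries highest, and those at mast cell and eosinophil markers to 5.75 to 16.1 CPM.

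The share of all counts that fell in ribosomal protein gene regions followed the gene end share. It was 0.694% and 0.645% in cMoP, 0.771% and 0.732% in GMP-MoP, 0.862% and 0.849% in proNeu1, and 0.883% and 0.875% in proNeu2, so that no 2 groups overlapped. Set against regions at the starts of other genes, the differences were smaller. Per 1000 counts at those starts, ribosomal protein gene regions held 19.0 and 18.9 counts in cMoP, 20.2 and 20.4 in GMP-MoP, 20.4 and 20.4 in proNeu1, and 20.7 and 20.7 in proNeu2. On this scale both cMoP libraries lay below the other 6, and GMP-MoP lay next to proNeu1. These counts include member regions away from gene starts. With regions at member starts alone, cMoP had 14.42 and 14.38 and GMP-MoP had 15.24 and 15.29. The values in proNeu1 were then 15.58 and 15.51, and in proNeu2 15.92 and 15.76, so GMP-MoP lay between cMoP and proNeu1. The 4 subunit classes shared the low cMoP value, which was not particular to them. Ribosome biogenesis genes had 5.69 and 5.59 counts per 1000 in cMoP, against 5.76 to 6.11 in the other libraries. Other housekeeping genes had 2.815 and 2.678 in cMoP, against 2.816 to 3.279. Translation factor genes, at 5.86 and 5.76 in cMoP, overlapped GMP-MoP at 5.95 and 5.80. By group mean, the classes other than the cytosolic small subunit were highest in proNeu2. The cytosolic small subunit was highest in GMP-MoP, with 4.24 and 4.40 counts per 1000, against 3.79 and 3.84 in cMoP, 4.16 and 4.0 in proNeu1 and 4.14 and 4.06 in proNeu2. The cytosolic large subunit had 6.32 and 6.36 counts per 1000 in proNeu2, next to 6.25 and 6.30 in proNeu1, against 5.81 and 5.63 in cMoP. In such bulk libraries, more cells with an open region and more open DNA per cell cannot be told apart.

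**Figure D1:**
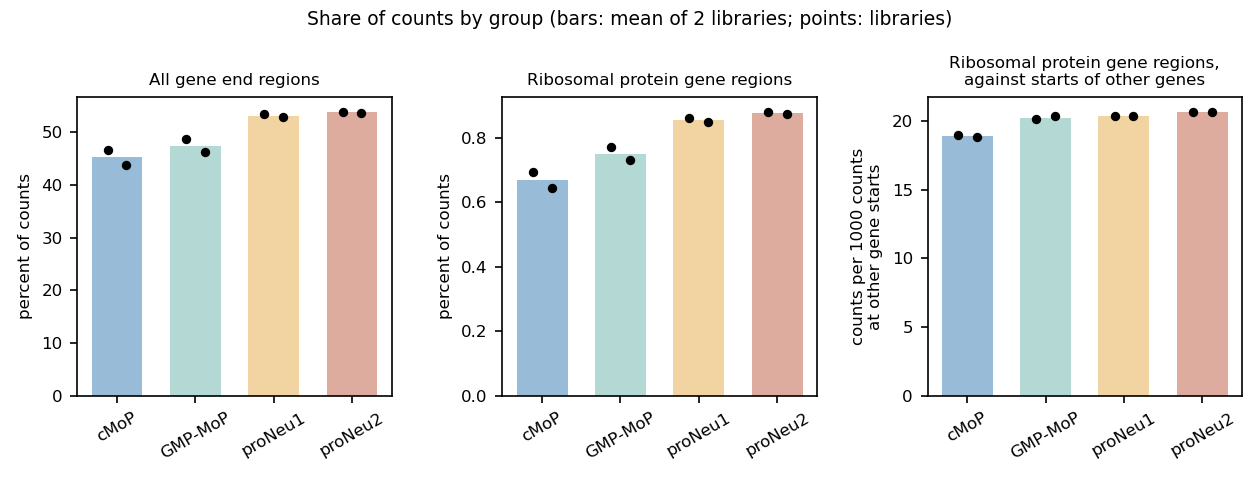
Percent of counts at all gene end regions (left), percent of counts in ribosomal protein gene regions (middle) and counts in ribosomal protein gene regions per 1000 counts at the starts of other genes (right), by group. Bars are means of 2 libraries and points are libraries; the left and middle panels rise from cMoP to proNeu2, and in the right panel the cMoP points, at 19.0 and 18.9, lie below the other 6.

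Comparisons between groups used edgeR's quasi-likelihood F test on the counts of all regions that passed a minimum count, with Benjamini-Hochberg adjusted p under 0.05 taken as a call. Of the 183 regions, 180 passed, and the 3 that did not lay at the other ends of Rps10, Mrpl21 and Mrpl44. All comparisons with cMoP share its 2 libraries, and those with GMP-MoP share its 2 libraries, so they are not independent of each other.

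Between proNeu1 and cMoP, most ribosomal protein gene regions were more accessible in proNeu1, by a median log2 fold change of 0.45. Higher counts were called at 85 of 180 regions (47.2%) and lower counts at 1, where 42.4% of the 47506 tested regions were called in all, 20.5% higher and 21.9% lower. Among starts of other genes 35.9% were called higher with a median of 0.30, and among the other starts with levels at or above the lower quartile of the ribosomal set (24.1 CPM) 46.3% were called higher with a median of 0.37. The share of ribosomal protein gene regions called higher was thus close to that of these stronger starts. Their median level was 52.1 CPM, against 36.4 CPM for the ribosomal set. It lay above the 35.9% of all other starts, whose median level was 38.5 CPM. Regions away from gene ends had a median log2 fold change of −0.15. By class, higher counts were called at 26 of 53 cytosolic large subunit regions, 18 of 35 cytosolic small subunit regions, 24 of 55 mitochondrial large subunit regions and 11 of 30 mitochondrial small subunit regions, with medians of 0.48, 0.41, 0.43 and 0.38. DESeq2, another test on counts, called 24 regions in place of 86, and 9242 of all tested regions in place of 20151. Leaving out cMoP replicate 2 also lowered the count of edgeR calls, over all tested regions too.

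**Figure D2:**
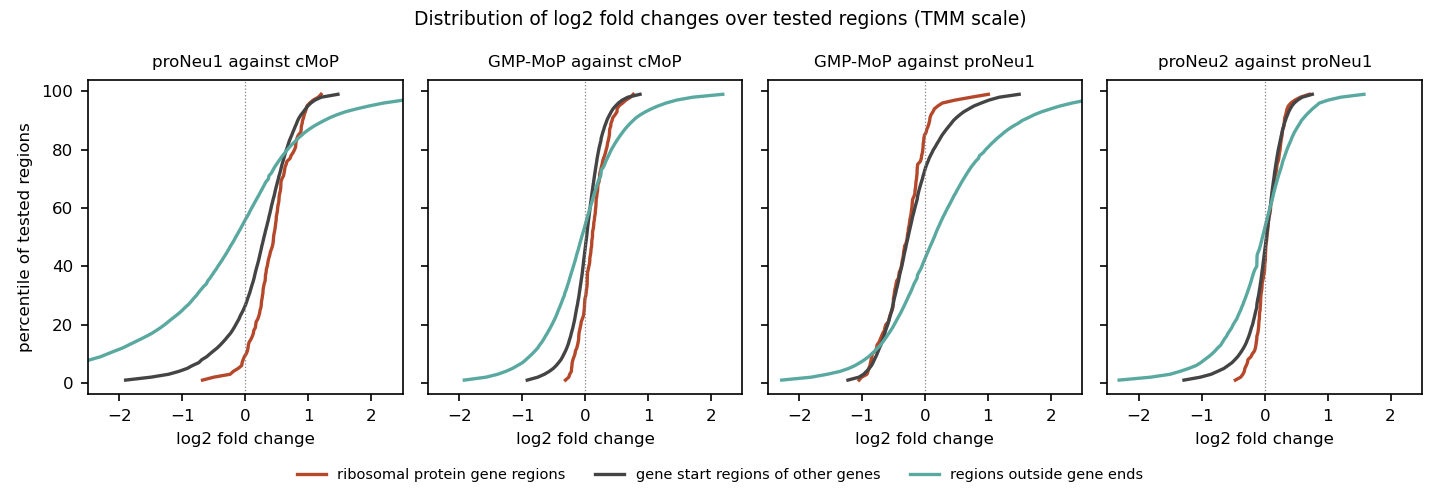
Cumulative distribution of log2 fold changes (x axis, TMM scale) over tested regions (y axis, percentile) for ribosomal protein gene regions, starts of other genes and regions outside gene ends, in 4 comparisons. In proNeu1 against cMoP the medians are 0.45, 0.30 and −0.15; in GMP-MoP against proNeu1 the ribosomal curve, with a median of −0.28, runs along that of the other starts.

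Rpl7a, a protein of the cytosolic large subunit, had 20.2 and 12.2 CPM in the cMoP libraries, 32.2 and 22.4 in GMP-MoP, 41.6 and 39.2 in proNeu1, and 48.6 and 49.2 in proNeu2. All proNeu libraries lay above all cMoP and GMP-MoP libraries, and the log2 fold change of proNeu1 over cMoP was 1.32 (SE 0.239, adjusted p = 1.07e-06). Its region (chr2:26910032-26911294) also serves the neighbouring Med22, a subunit of the Mediator complex. Rpl26, a large subunit protein also known for binding p53 messages, had 23.8 and 14.2 CPM in cMoP, 24.5 and 24.5 in GMP-MoP, 44.3 and 41.8 in proNeu1, and 44.5 and 37.1 in proNeu2. The proNeu levels did not overlap those of either other group, and the log2 fold change of proNeu1 over cMoP was 1.18 (SE 0.228, adjusted p = 4.93e-06). Rpl13a, a large subunit protein best known outside the ribosome for silencing inflammatory messages, went from 51.6 ± 1.82 CPM (SD, n = 2) in cMoP to 89.6 ± 8.11 in proNeu1 and 107 ± 17.0 in proNeu2.

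Among mitochondrial members, Mrpl10 of the large subunit had 16.6 and 14.7 CPM in cMoP, 25.2 and 18.5 in GMP-MoP, 44.3 and 36.6 in proNeu1, and 41.6 and 32.0 in proNeu2. The log2 fold change of proNeu1 over cMoP was 1.36 (SE 0.240, adjusted p = 5.11e-07), the largest of the called changes in this comparison. This start region also lies within 1 kb of Lrrc46. A second region, 926 bases past the other end of Mrpl10 and nearest to Osbpl7, was called too. It had 8.45 ± 1.70 CPM in cMoP and 18.9 ± 6.5 in proNeu1, although leaving out proNeu1 replicate 2 ended that call. Mrpl38, also of the large subunit, rose from 40.8 ± 5.28 CPM in cMoP to 75.6 ± 5.70 in proNeu1 (log2 fold change 0.89, SE 0.175, adjusted p = 6.46e-06).

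Between proNeu2 and cMoP, higher counts were called at 99 of 180 regions (55.0%) and lower counts at 4, with a median log2 fold change of 0.51. Of all tested regions 52.6% were called, 25.2% higher and 27.4% lower, and of the other starts at or above 24.1 CPM 53.8% were called higher. Mrpl48 had 55.5 and 50.3 CPM in cMoP, 76.2 and 53.4 in GMP-MoP, 97.5 and 111 in proNeu1, and 133 and 126 in proNeu2. Its proNeu2 libraries were highest of all, and the log2 fold change over cMoP was 1.29 (SE 0.150, adjusted p = 1.77e-14). Mrpl30 had 18.6 and 12.7 CPM in cMoP, 13.3 and 14.7 in GMP-MoP, 25.2 and 25.5 in proNeu1, and 35.1 and 47.9 in proNeu2, with a log2 fold change of proNeu2 over cMoP of 1.40 (SE 0.236, adjusted p = 9.99e-08). Both regions are shared with another gene, Rab6a for Mrpl48 and Mitd1 for Mrpl30. Rpl7a had the largest called change, at 1.59 (SE 0.226, adjusted p = 2.64e-10). A region 927 bases from Rpl12, whose nearest gene is Lrsam1, had a fitted change of 1.45 on few counts. It went from 3.09 ± 1.49 CPM in cMoP to 8.46 ± 2.93 in proNeu2 (adjusted p = 0.00977). The call ended with DESeq2 (adjusted p = 0.138) and without cMoP replicate 2 or proNeu2 replicate 1. A separate region covers the start of Rpl12, and its values are not given here. DESeq2 called 48 regions in place of 103, and 14505 of all tested regions in place of 24993.

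**Figure D3:**
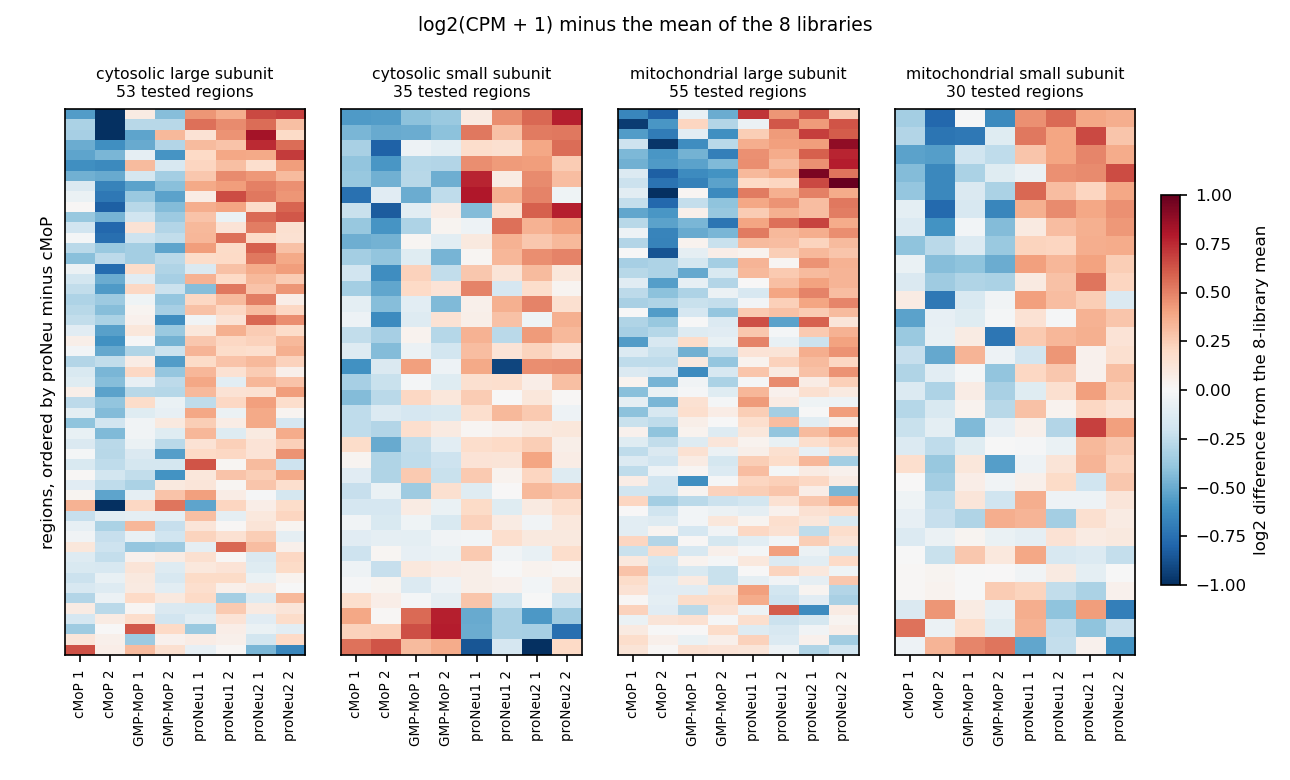
Difference of log2(CPM + 1) from the mean of the 8 libraries (colour) for each tested region (rows) and library (columns), in the 4 subunit classes. Rows are ordered by the proNeu minus cMoP difference, so that order is no finding; the bottom rows of the cytosolic small subunit panel, among them the other ends of Rpsa and Rps15a, are lower in the proNeu libraries.

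Between GMP-MoP and cMoP, higher counts were called at 3 of 180 regions (1.67%) and lower counts at none, with a median log2 fold change of 0.12. This share lies near that of all tested regions, of which 5.46% were called, 1.97% higher and 3.49% lower. Of the other starts at or above 24.1 CPM 0.444% were called higher. An unadjusted p under 0.05 was reached by 14 regions. Rps27a and Rpl3, whose genes are not in the promoter table, were among the calls.

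Rps27a, which encodes a fusion of ubiquitin and a small subunit protein, had 50.8 and 44.7 CPM in cMoP, 74.1 and 70.9 in GMP-MoP, 91.3 and 57.4 in proNeu1, and 73.2 and 65.8 in proNeu2. Both cMoP libraries were lowest and GMP-MoP lay among the proNeu libraries (log2 fold change over cMoP 0.60, SE 0.169, adjusted p = 0.0153). Rpl3, a core protein of the large subunit near its catalytic centre, had 24.9 and 24.4 CPM in cMoP, 48.2 and 34.4 in GMP-MoP, 45 and 47.7 in proNeu1, and 43.3 and 51.7 in proNeu2 (log2 fold change of GMP-MoP over cMoP 0.72, SE 0.215, adjusted p = 0.0233). At both, cMoP stood apart from the other groups, which overlapped. DESeq2 kept neither (adjusted p = 0.683 and 0.676), and called none of the 180. Of all tested regions it called 37, in place of 2594. Leaving out cMoP replicate 2 or GMP-MoP replicate 1 ended every call, leaving out GMP-MoP replicate 2 left that of Rpl3, and leaving out cMoP replicate 1 ended that of Rpl3.

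Between GMP-MoP and proNeu1, lower counts in GMP-MoP were called at 44 of 180 regions (24.4%) and higher counts at 3, with a median log2 fold change of −0.28 that turned to 0.02 when libraries were scaled to the starts of other genes. Of all tested regions 24.1% were called, 11.6% higher and 12.4% lower, and of the other starts at or above 24.1 CPM 35.2% were called lower. Mrpl38 had 39.2 and 32.2 CPM in GMP-MoP against 71.6 and 79.6 in proNeu1, a log2 difference of −1.10 (SE 0.186, adjusted p = 1.03e-06). Rpl7l1, a paralog of Rpl7 with a role in ribosome assembly, had 21.7 and 17.5 CPM in GMP-MoP against 44.3 and 39.8 in proNeu1 (−1.12, SE 0.236, adjusted p = 0.000105). Mrpl49 had 20.3 and 17.5 CPM in GMP-MoP, 39.5 and 37.2 in proNeu1, and 20.7 and 18.8 in cMoP, so that the GMP-MoP and cMoP libraries overlapped. Its region is shared with Fau, which encodes a fusion of a ubiquitin-like protein and a small subunit protein. DESeq2 called 5 regions in place of 47, and 2135 of all tested regions in place of 11429. Leaving out GMP-MoP replicate 2 or either proNeu1 library also lowered the count of calls, over all tested regions too.

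Between GMP-MoP and proNeu2, lower counts were called at 69 of 180 regions (38.3%) and higher counts at 3, with a median log2 fold change of −0.37. Of all tested regions 39.2% were called, 20% higher and 19.2% lower, and of the other starts at or above 24.1 CPM 47.3% were called lower. Mrpl30 differed by −1.55 (SE 0.253, adjusted p = 1.10e-07), and Mrpl28, with 11.2 and 11.4 CPM in GMP-MoP against 35.1 and 26.2 in proNeu2, by −1.44 (SE 0.283, adjusted p = 1.08e-05). The calls fell from 72 to 29 with DESeq2, and over all tested regions from 18603 to 7133. They also fell without GMP-MoP replicate 2 or proNeu2 replicate 1, over all tested regions too.

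Between proNeu2 and proNeu1, edgeR called none of the 180 regions, with a median log2 fold change of 0.03, and 0.0758% of all tested regions were called, 0.00842% higher and 0.0674% lower. DESeq2 also called none, and 9 regions reached an unadjusted p under 0.05 in edgeR. The quartiles of the log2 fold change were −0.07 and 0.20. Over the 6 comparisons, 65 of the 180 regions (36.1%) were called in 3 or more, beside 31.8% of all tested regions and 41.7% of the other starts at or above 24.1 CPM. Mrpl30 had the largest log2 difference of the regions named here, with 25.2 and 25.5 CPM in proNeu1 against 35.1 and 47.9 in proNeu2 (0.70, SE 0.227, adjusted p = 0.235).

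**Figure D4:**
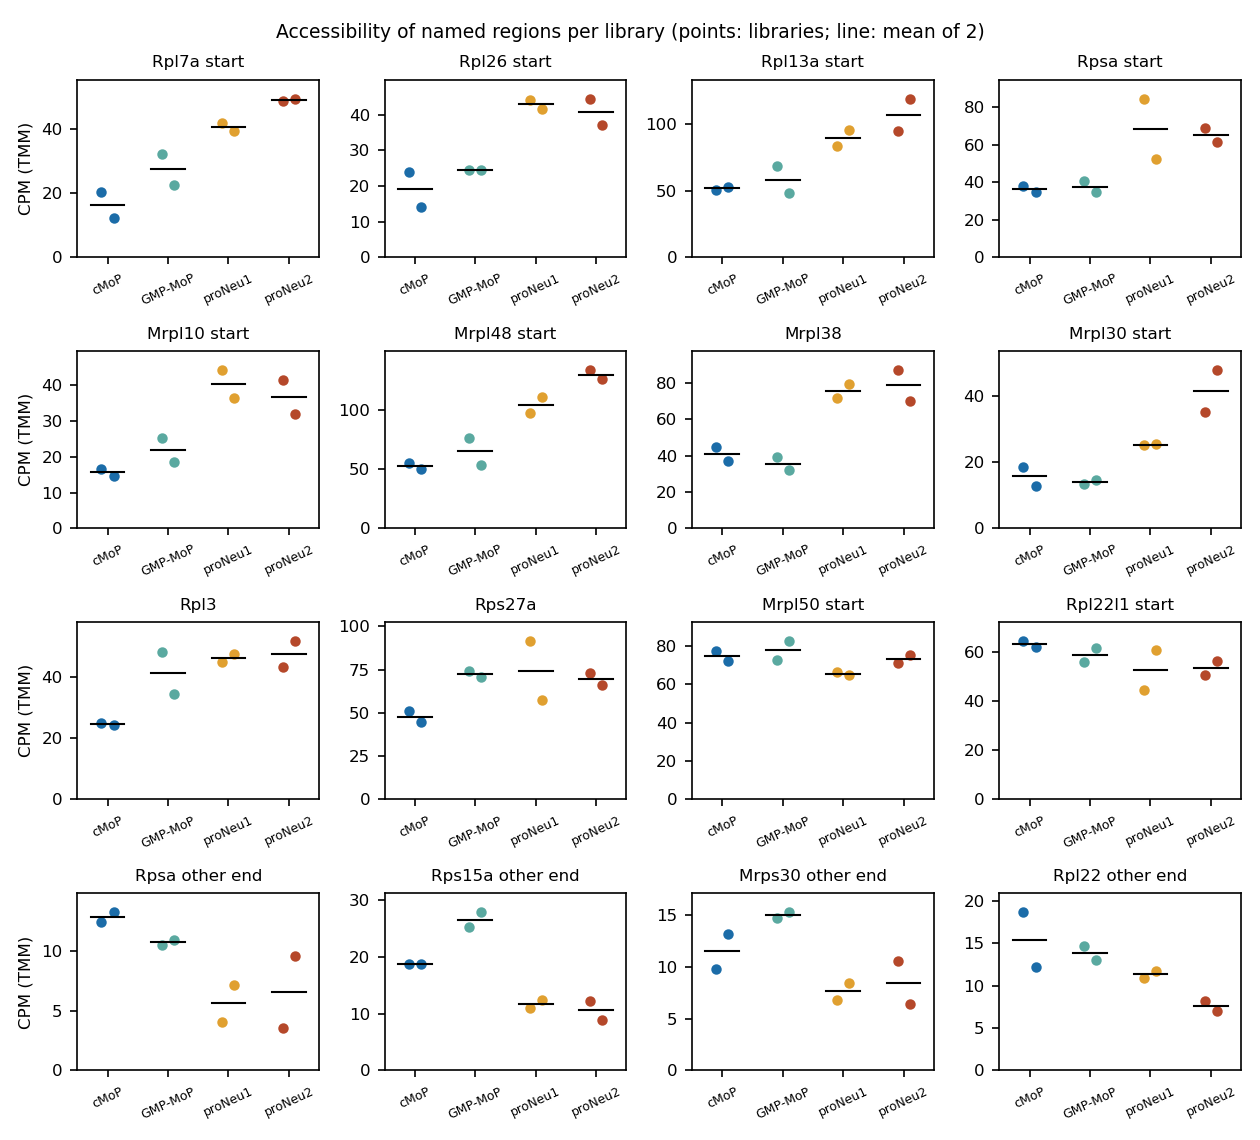
CPM with TMM scaling (y axis) of named regions in each library, by group. Points are libraries and lines are means of 2; the panels from Rpl7a to Mrpl30 show proNeu above cMoP, Rpl3 and Rps27a show cMoP below the other groups, and the bottom row shows regions that were lowest in the proNeu groups.

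A few members ran against the rest. The region at the other end of Rpsa (chr9:120132995-120134122) had 12.4 and 13.2 CPM in cMoP, 10.5 and 10.9 in GMP-MoP, 4.09 and 7.18 in proNeu1, and 3.51 and 9.58 in proNeu2. It was lower in proNeu1 than in cMoP by −1.17 on the log2 scale (SE 0.408, adjusted p = 0.0136), while the start of the same gene, which encodes a small subunit protein that also acts as a laminin receptor, was higher by 0.90 (SE 0.183, adjusted p = 1.38e-05). At that start the levels were 37.8 and 35.1 CPM in cMoP, 40.6 and 34.9 in GMP-MoP, 84.5 and 52.2 in proNeu1, and 69.1 and 61.3 in proNeu2. Both ends of Rpsa were called, in opposite directions, and the difference between the ends was not tested. Leaving out proNeu1 replicate 1 ended both of these calls. The call at the other end also ended without cMoP replicate 2.

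Rps15a, a small subunit gene, had a region at its other end with 18.7 and 18.8 CPM in cMoP, 25.2 and 27.8 in GMP-MoP, 10.9 and 12.4 in proNeu1, and 12.3 and 8.95 in proNeu2. Both GMP-MoP libraries were highest and the proNeu libraries lowest, with log2 differences of GMP-MoP over proNeu1 of 1.18 (SE 0.296, adjusted p = 0.00116) and over proNeu2 of 1.31 (SE 0.295, adjusted p = 0.000125). The other end of Rpl22 fell from 15.4 ± 4.57 CPM in cMoP to 7.61 ± 0.824 in proNeu2 (−1.01, SE 0.352, adjusted p = 0.0111), and Mrps25 was lower in proNeu2 at its start (−0.61, SE 0.269, adjusted p = 0.0456). A region at the other end of Mrps30 was higher in GMP-MoP than in proNeu1 (0.96, SE 0.376, adjusted p = 0.0465) and Mrpl39 was higher in GMP-MoP than in proNeu2 (0.40, SE 0.168, adjusted p = 0.0484). DESeq2 kept the call of Rps15a between GMP-MoP and proNeu2 (adjusted p = 0.0250) and none of the other calls in this paragraph or at the other end of Rpsa. Of 8 fits that each left out 1 library, 5 kept the call of Rpl22, 2 that of Mrps25, 2 that of Mrps30 and 1 that of Mrpl39. Leaving out any library other than cMoP replicate 2 ended the Mrpl39 call, with an adjusted p of 0.352 without proNeu2 replicate 2.

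Scaling each library to the summed counts at the starts of other genes moved all regions together. Their median log2 fold change became −0.30 in proNeu1 against cMoP and −0.38 in proNeu2 against cMoP, from 0.02 and −0.02 with TMM, and 0.30 in GMP-MoP against proNeu1 and 0.37 in GMP-MoP against proNeu2, from 0.0075 and 0.04. On this scale ribosomal protein gene regions were called higher at 27 and lower at 8 in proNeu1 against cMoP, with a median of 0.13, and at 40 and 16 in proNeu2 against cMoP, with a median of 0.15. In proNeu1 against cMoP that is 15% higher and 4.44% lower, beside 10.4% and 30.9% of all tested regions and 16.9% and 11.3% of the other starts at or above 24.1 CPM. In proNeu2 against cMoP it is 22.2% and 8.89%, beside 13.9% and 37.7% of all tested regions and 25.2% and 18.1% of those starts. All 27 and all 40 were among the 85 and 99 called higher with TMM. Rpl7a (0.99, adjusted p = 0.000218), Rpl26 (0.86, adjusted p = 0.000976), Mrpl10 (1.04, adjusted p = 0.000151) and Mrpl48 (0.66, adjusted p = 2.44e-05) kept higher counts in proNeu1 than in cMoP. Mrpl50 (−0.52, adjusted p = 0.00164), Rpl22l1 (−0.58, adjusted p = 0.00127) and Rpl7 (−0.35, adjusted p = 0.0107) were called lower there, and none of these 3 was called with TMM. GMP-MoP against cMoP gave 4 higher calls, among them Rps27a, Rpl3 and Rps19 (0.41, adjusted p = 0.0405), with a median of 0.09. These calls are 2.22% of the tested ribosomal protein gene regions. Of all tested regions 1.67% were called higher and 3.31% lower. Of the other starts at or above 24.1 CPM 0.529% were called in each direction. GMP-MoP against proNeu1 gave 9 higher and 13 lower, and GMP-MoP against proNeu2 gave 19 higher and 28 lower. Against proNeu1 that is 5% and 7.22%, beside 19.97% and 5.02% of all tested regions and 8.36% and 11.57% of those starts. Against proNeu2 it is 10.56% and 15.56%, beside 30.51% and 9.10% of all tested regions and 16.03% and 20.96% of those starts. Between proNeu2 and proNeu1 none was called.

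Single members chosen for their roles showed the same range. Rps19, a small subunit protein whose human gene is the most often mutated in Diamond-Blackfan anaemia, had 67.7 ± 0.508 CPM in cMoP, 92.4 ± 5.75 in GMP-MoP, 112 ± 14.0 in proNeu1 and 117 ± 3.37 in proNeu2, and was called higher in both proNeu groups than in cMoP (adjusted p = 1.64e-05 and 8.80e-07). Rps3, a small subunit protein that also takes part in DNA repair, had 29.0 ± 0.766 CPM in cMoP, 29.6 ± 1.33 in GMP-MoP, 54.8 ± 6.39 in proNeu1 and 59.3 ± 0.219 in proNeu2, with GMP-MoP at the cMoP level. Rplp0, of the ribosomal stalk, was higher in proNeu2 than in cMoP (87.8 ± 4.92 against 50.04 ± 1.79 CPM, adjusted p = 5.91e-06), and its proNeu1 level was 63.3 ± 5.61 CPM (adjusted p against cMoP = 0.105). Rps6, the small subunit protein phosphorylated by S6 kinases, had 42.1 ± 6.39 CPM in cMoP, 46.8 ± 2.98 in GMP-MoP, 59.8 ± 5.13 in proNeu1 and 58.0 ± 2.45 in proNeu2, called in both proNeu groups (adjusted p = 0.0169 and 0.0223). On the gene start scale the Rps6 calls ended (adjusted p = 0.409 and 0.627), as they did with DESeq2 (0.195 and 0.174) and without cMoP replicate 2 (0.162 and 0.172).

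Rpl5 and Rpl11 are the large subunit proteins that bind Mdm2 when ribosome assembly is disturbed. Rpl11 had 29.5 ± 0.678 CPM in cMoP and 42.3 ± 2.01 in proNeu1 (adjusted p = 0.0340), and Rpl5 had 38.0 ± 6.33 and 51.9 ± 11.5 (adjusted p = 0.0490). Both calls ended on the gene start scale (adjusted p = 0.465 and 0.623), with DESeq2 (0.280 and 0.327) and without cMoP replicate 2 (0.0699 and 0.298). Rpl10, which is placed late in large subunit assembly, had 52.6 ± 6.17 CPM in cMoP, 63.7 ± 17.6 in GMP-MoP, 63.1 ± 3.34 in proNeu1 and 63.7 ± 3.39 in proNeu2, with no call in any comparison. Rpl39, Rps27 and the start of Rpl22 likewise had no call, at 33.6 to 38.5, 26.3 to 36.8 and 66.2 to 83.1 CPM over the group means. Among paralogs, Rps27l rose from 38.7 ± 0.902 CPM in cMoP to 55.2 ± 7.74 in proNeu1 (adjusted p = 0.0192, but 0.412 on the gene start scale and 0.233 with DESeq2), and Rpl22l1, the paralog of Rpl22, had 63.1 ± 1.6 in cMoP and 52.5 ± 11.6 in proNeu1 (adjusted p = 0.221). Rpl3l, the muscle form of Rpl3, has its region at its other end beside Msrb1, with 56.0 ± 6.58 CPM in cMoP and 88.05 ± 0.807 in proNeu1.

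In the mitochondrial ribosome, Mrps18b had 58.7 ± 0.455 CPM in cMoP, 73.4 ± 1.99 in GMP-MoP, 109 ± 6.57 in proNeu1 and 116 ± 7.05 in proNeu2, with calls against cMoP in both proNeu groups (adjusted p = 2.02e-07 and 2.38e-09). Mrpl12, which also binds the mitochondrial RNA polymerase, had 27.7 ± 0.340 CPM in cMoP and 46.4 ± 2.31 in proNeu2 (adjusted p = 0.00101, but 0.0985 on the gene start scale), and Mrps12 of the decoding centre had 40.6 ± 9.27 and 68.5 ± 2.52 (adjusted p = 0.000109). Some members had nearly level group means with TMM: Mrps9 had group means of 54.6, 53.9, 55.0 and 52.0 CPM in cMoP, GMP-MoP, proNeu1 and proNeu2, and Rpl36a had 41.5, 42.7, 43.3 and 43.9. Mrpl53 and the shared region of Mrpl46 and Mrps11 were as narrow, with highest over lowest group means of 1.06 and 1.11. On the gene start scale Mrps9 (−0.43, adjusted p = 0.0169) and the shared region (−0.47, adjusted p = 0.0384) were called lower in proNeu2 than in cMoP. Over all tested members the median ratio of highest to lowest group mean was 1.53. It was 1.48 for other starts and 1.54 for regions outside gene ends, both at or above 24.1 CPM. The members were not held to that cut, so the sets differ in strength.

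At ribosomal proteins whose symbols fall outside the rule, 6 of 9 tested regions at 8 genes were called higher in proNeu1 than in cMoP, with a median of 0.74. These 9 are not fully separate from the regions above. The region shared by Fau and Mrpl49 is in both sets and was among those called higher (adjusted p = 0.000263). Dap3, a mitochondrial small subunit protein, had 50.1 ± 7.59 CPM in cMoP and 97.2 ± 14.0 in proNeu1 (adjusted p = 1.20e-07). Rack1, a scaffold on the small subunit, had 48.3 ± 5.03 and 51.7 ± 1.72 at its start (adjusted p = 0.691). Of 49 regions at ribosome biogenesis genes, 21 were called higher and 1 lower, with a median of 0.40. Nop56, a component of the nucleolar particles that methylate ribosomal RNA, had 39.8 ± 1.26 CPM in cMoP and 66.0 ± 1.08 in proNeu1 (adjusted p = 0.000356), and Npm1, the main nucleolar chaperone, had 57.0 ± 7.32 and 59.9 ± 10.8 (adjusted p = 0.777). Of 37 regions at translation factor genes 22 were called higher and none lower, with a median of 0.55, and of 20 at other housekeeping genes 10 were called higher and none lower, with a median of 0.45. Actb and Gapdh, often taken as constant, had 114 ± 17.6 and 75.5 ± 11.9 CPM in cMoP against 188 ± 6.70 and 122 ± 15.1 in proNeu1 (adjusted p = 4.64e-07 and 2.05e-05). These counts stand beside the 20.5% of all tested regions called higher, the 35.9% of other gene starts and the 46.3% of other starts at or above 24.1 CPM.

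RefSeq promoters, from 250 bases before to 50 after the start, were matched for 139 of the 169 genes, in 157 windows. Since several starts of a gene overlap, the windows are not independent. The ETS motif CCGGAA was present in 51.0% of these windows, against 18.7% of 21263 windows of all protein-coding genes and 26.7% of the windows of genes with a region at the start. The YY1 motif AAGATGG was present in 15.9%, against 6.24% and 6.84%, and the NRF1 motif GCGCATG in 10.8%, against 4.80% and 6.57%. The SP1 motif GGGCGG, at 54.8%, lay between the 46.2% of all windows and the 61.9% of those with a region, and the E-box CACGTG, at 9.55%, lay near the 9.79% of the latter. The TATA box TATAAA, at 8.92%, lay between the 12.6% of all windows and the 7.33% of those with a region. Each motif was searched on both strands, and matches of different motifs may share bases.

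A pyrimidine run of at least 5 bases beginning with C at the annotated start itself was found in 14 of 71 windows of cytosolic members (19.7%), among them Rpl14, Rpl15, Rpl35, Rps6, Rps18 and Rps21, in 0 of 75 windows of mitochondrial members and in 2.21% of all windows. With a start allowed within 10 bases, the shares were 53.5% and 41.3%, against 31.1% of all windows. ETS motifs were present in both classes, at 46.5% of cytosolic and 57.3% of mitochondrial windows. Regions with an ETS match at the start had a median level of 37.5 CPM per kilobase (65 regions) and those without one 29.6 (59 regions), and the median ratio of proNeu1 to cMoP levels was 1.35 and 1.39. Regions with and without the ETS motif thus had similar ratios between these groups, and no test was made. The higher level was not particular to ETS. Median levels per kilobase with and without the SP1 motif were 38.2 and 27.0 CPM. For NRF1 they were 42.2 (13 regions) and 32.7, and for the pyrimidine run 36.8 and 31.1. With YY1, TATA box and E-box matches the level was lower than without. Median GC content was 58.3%, against 56.3% for all windows and 60.7% for those of genes with a region at the start, and the observed over expected CpG ratio was 0.843 against 0.567 and 0.748.

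**Figure D5:**
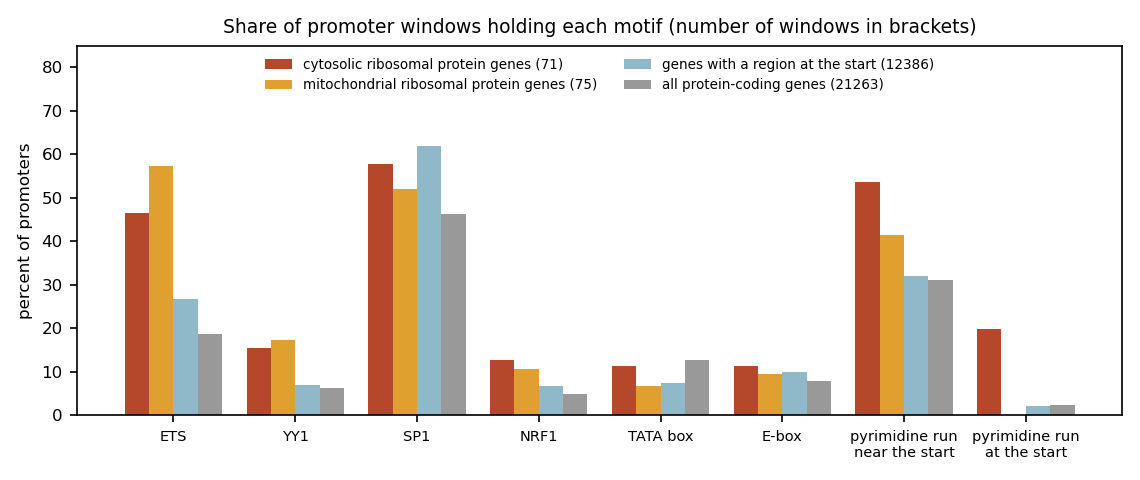
Percent of RefSeq promoter windows (y axis) holding each motif, for cytosolic and mitochondrial ribosomal protein genes, genes with a region at the start and all protein-coding genes. ETS bars stand at 46.5% and 57.3% for the ribosomal classes against 18.7% for all genes, and the run at the start is present in the cytosolic class at 19.7% and in no window of the mitochondrial class.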

How the data were processed

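ATAC-seq counts of 8 libraries were analysed, 2 in each of 4 groups taken from the labels. The authors deposited a whole-number read count per region and library for the same 61196 regions in every file. The build was mm10 and the tools included HOMER 4.11, Bowtie2 2.3.5.1 and edgeR 3.32.1, per the submitters' processing notes, which give no roles. The sources used here do not say how reads were shifted, filtered and counted, or whether regions were called per library. Totals cover these regions only, so they are not whole library depths.

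Regions were linked to RefSeq genes of GRCm38.p6 by distance, and starts were taken from the RefSeq promoter table, which holds 139 of the 169 genes. Counts were tested with edgeR 4.0.16 (quasi-likelihood F test, TMM, filterByExpr with a minimum count of 10, all 8 libraries in 1 fit with a mean per group) in R 4.3.3. The 6 comparisons each had Benjamini-Hochberg adjustment over 47506 regions, and each SE was derived from the log2 fold change and its F. The procedure was tested on simulated data. Alternatives were total counts, DESeq2 size factors, loess offsets (limma 3.58.1), a scale of the cytosolic ribosomal protein gene regions, no filter, DESeq2 1.42.0, a replicate block, each library left out and stricter links to genes. The scale of other gene starts was chosen after seeing the data.

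Regions were named by a rule: up to 4 largest called changes per comparison and direction, the 3 highest levels per subunit class, fixed genes of known role, the 4 widest and 4 narrowest ranges of group means at 20 CPM or more, and members called in 3 or more comparisons, which were counted rather than listed. Some genes the rule names are not reported here. Mrpl50 and the promoters shown were picked after their values were seen. Members and lists were chosen with earlier results of these data known, so no list was given a p. Replicate numbers shared between groups did not pair the libraries, with correlations of deviations from −0.011 to 0.079 over the 6 pairs of groups.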

Additional observations from a re-analysis of the deposited data

How the results depend on the processing

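The direction of the median over ribosomal protein gene regions held under total counts, DESeq2 size factors, no filter, the replicate block, both stricter gene links and each library left out, in all 6 comparisons. The direction did not hold on every scale. On the gene start scale it turned in GMP-MoP against proNeu1 and in proNeu2 against proNeu1. On the scale of the cytosolic ribosomal protein gene regions it turned in these comparisons and in GMP-MoP against cMoP. Loess offsets made the medians smaller and kept their direction in the comparisons given here. The loess medians were 0.20 in proNeu1 against cMoP and 0.26 in proNeu2 against cMoP. They were −0.0574 in GMP-MoP against proNeu1 and −0.15 in GMP-MoP against proNeu2. The loess calls were 46 in proNeu1 against cMoP and 28 in GMP-MoP against proNeu1. With total counts the medians of GMP-MoP against proNeu1 and proNeu2 were −0.17 and −0.24. On the gene start scale the calls were 35, 56, 22 and 47 in proNeu1 and proNeu2 against cMoP and GMP-MoP against proNeu1 and proNeu2, with medians of 0.13, 0.15, 0.016 and −0.0397, and −0.0029 in proNeu2 against proNeu1. On the scale of the cytosolic ribosomal protein gene regions, which by construction sets their sum equal in all libraries, the medians were 0.0064, 0.0218, −0.0361, 0.011, −0.033 and −0.0148 in proNeu1, proNeu2 and GMP-MoP against cMoP, GMP-MoP against proNeu1 and proNeu2, and proNeu2 against proNeu1, with 31, 48 and 21 calls in proNeu1 and proNeu2 against cMoP and GMP-MoP against proNeu1. DESeq2 called 24, 48, 0, 5 and 29 regions in those first 5 comparisons, and restricting GMP-MoP against cMoP to gene starts left 0; the cause was not tested for DESeq2, and the latter removes the regions whose end is not told.

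Leaving out 1 library gave 46 to 90 calls in proNeu1 against cMoP, 72 to 114 in proNeu2 against cMoP, 0 to 4 in GMP-MoP against cMoP, 17 to 50 in GMP-MoP against proNeu1, 38 to 75 in GMP-MoP against proNeu2 and 0 to 0 in proNeu2 against proNeu1, with medians of 0.39 to 0.49, 0.46 to 0.65, 0.05 to 0.20, −0.37 to −0.25, −0.49 to −0.28 and 0.04 to 0.08. Here the remaining library of a group takes its spread from the other groups. With the replicate number as a block the counts of calls were 86, 105, 4, 49, 76 and 0, and the pairing changed no call of a named region. Of the 30 largest called changes that were named, DESeq2 kept 13 and the gene start scale 28, with no change of sign. Of 76 calls at fixed genes, at regions of widest range and at Dap3, Nop56, Actb and Gapdh, DESeq2 kept 46, the gene start scale 48, loess offsets 50, the cytosolic ribosomal protein scale 36 and the fits without 1 library 62 to 72, and the sign changed for Rps19 in GMP-MoP against proNeu2 with loess offsets and for Rps6 in proNeu2 against cMoP on the cytosolic ribosomal protein scale. The counts behind each region limit what could be called, and how often a change of a given size would be called is not reported here.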
